A study of Mus musculus with 13 samples.

Results

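The Spata, Spag and Tex genes are mouse genes named spermatogenesis associated, sperm associated antigen and testis expressed, mostly because their transcripts or proteins were first found in testis or sperm. The names mark where a gene was found and not a shared function. Of the 20662 gene symbols in the 2 tables used here, 48 began with one of these names and a digit, and 45 were kept after Tex11, Tex12 and Tex15 were left out: 18 Spata, 11 Spag and 16 Tex genes. The rule itself reads symbols and no measured value.

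The series profiled RNA of testicular germ cells of C57BL/6 mice aged 8 weeks, by ribosomal RNA depletion and strand-specific sequencing, in 5 spermatocyte, 5 spermatid, 1 mature sperm and 2 spermatogonial samples. The tables analysed belong to the spermatogonial samples, titled KIT_AGSC and THY1_AGSC, both labelled as spermatogonia from testis, and values of the remaining 11 are not analysed here. KIT is the stem cell factor receptor carried by differentiating spermatogonia, and THY1 is a surface antigen used to enrich undifferentiated ones. The labels name no genotype change or treatment, and do not say how the cells were isolated or how many mice were pooled. Values are FPKM, fragments scaled to transcript length and to the total of mapped fragments. Each group is 1 library, so no difference below has a replicate check, no error can be given and no test was made.

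The titles and the tables disagree. The table of the sample titled KIT_AGSC has the heading Thy1 over its values, and the table of the one titled THY1_AGSC has the heading Kit. Kit itself was listed at 0 in the KIT-labelled library and at 36.7 FPKM in the THY1-labelled library, whereas Thy1 was at 78.8 and 0.723 FPKM. All directions below follow the titles, as the KIT-labelled and the THY1-labelled library, and every one of them would turn if the titles were exchanged. Of 15 markers of undifferentiated spermatogonia, 9 reached 1 FPKM in a library, and 7 of these were higher by at least 2-fold in the KIT-labelled library and 2 in the other. Nanos3 was at 118 and 2.74 FPKM and Nanos2 at 54.1 and 1.49 FPKM, labelled KIT first, while Zbtb16, Lin28a and Neurog3 were listed at 0 in both. The 2 that went the other way were Taf4b (3.62 and 25.1 FPKM) and, chosen after its values were seen, Etv5 (a listed 0 and 2.95 FPKM). Of 10 genes listed as markers of differentiating spermatogonia, 7 were higher by at least 2-fold in the THY1-labelled library. They include Kit itself, Stra8 (0.743 and 34.1 FPKM) and Uchl1 (3.26 and 49.5 FPKM). Uchl1 is not specific to the differentiating stage.

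As germ cells mature, spermatogonia divide with incomplete cytokinesis and stay joined by bridges, enter meiosis as spermatocytes and then, as spermatids, build a flagellum, an acrosome and a compacted nucleus. The flagellum has an axoneme of outer microtubule doublets around a central pair, and a mitochondrial sheath wraps its midpiece. Several of the genes described here build these structures, and their transcripts are typically made from the spermatocyte stage onward. Others act in cells of many tissues, in the mitotic spindle, cilia, ribosome assembly or the endoplasmic reticulum.

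Most of these genes were higher in the THY1-labelled library. Of the 45, 40 reached 1 FPKM in at least 1 library (called usable below), and 30 of these (75%) were higher by at least 2-fold in the THY1-labelled library on the log2(FPKM + 1) scale, against 41.1% of all 15573 genes that reached that minimum. In the KIT-labelled library 7 (17.5%) were at least 2-fold higher, against 39.5% of all genes, and 3 (7.5%) lay within 2-fold, against 19.4%. The median difference, labelled KIT minus labelled THY1, was -3.02 for the 40 genes and -0.0026 for all genes. Over all 45 with no minimum, the same 30 were 66.7% of the genes, against 31% of all 20662, and the same 7 were 15.6%, against 29.8%. The direction was shared by the 3 families: 14 of 18 Spata, 8 of 10 Spag and 8 of 12 Tex genes were higher by at least 2-fold in the THY1-labelled library, with median differences of -4.00, -3.01 and -2.69. In such bulk libraries fewer cells of a type and less RNA per cell cannot be told apart.

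**Figure D1:**
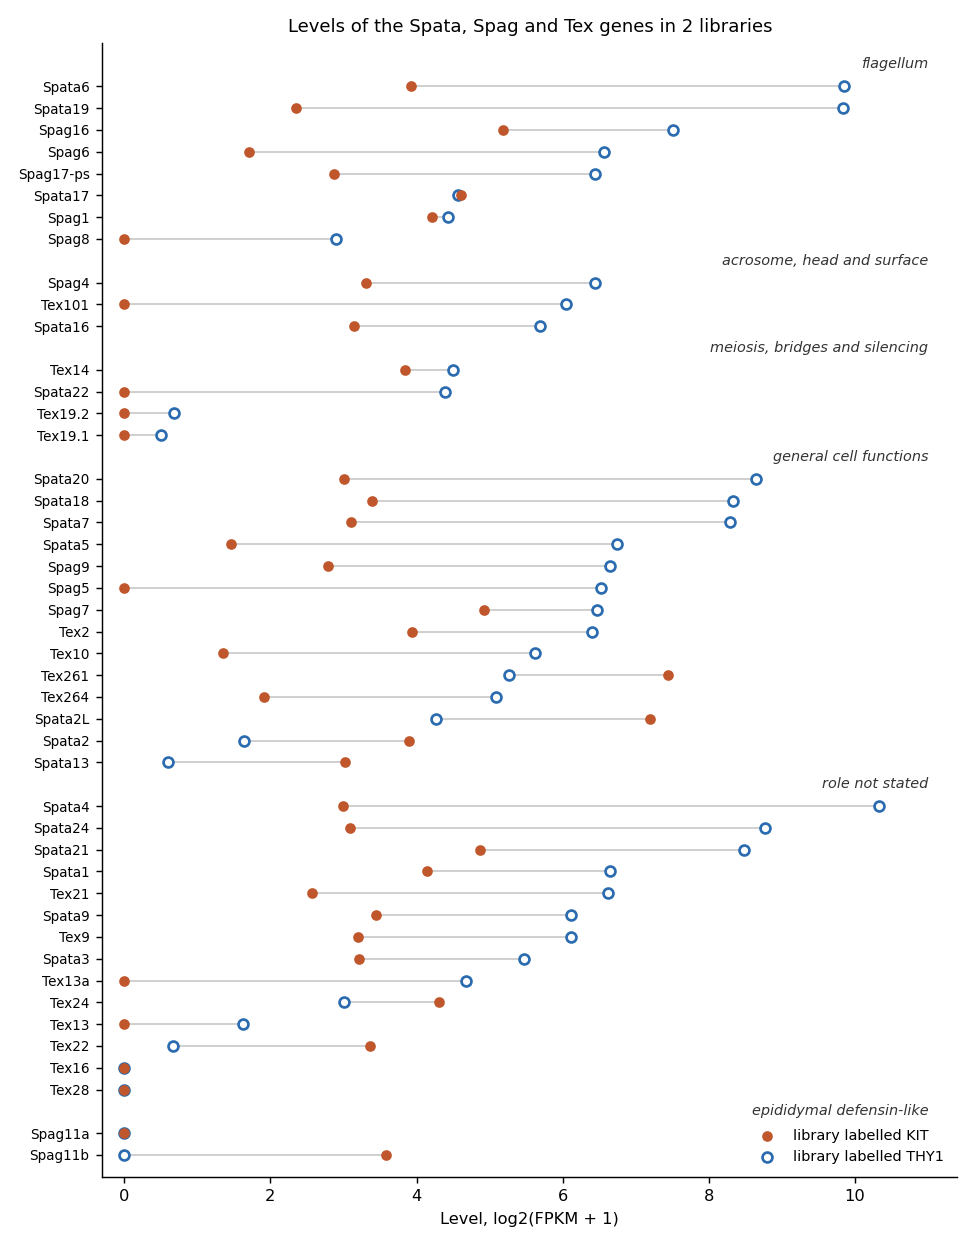
Level of each Spata, Spag and Tex gene as log2(FPKM + 1) on the x axis, in the KIT-labelled library (filled orange) and the THY1-labelled library (open blue), with genes grouped by role. Most blue circles lie to the right of the orange ones, and the 7 genes in which the orange circle lies at least 2-fold to the right include Tex261, Spata2L and Spag11b.

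The members' levels covered different ranges in the 2 libraries. In the KIT-labelled library 34 genes were above 0, from 1.56 FPKM (Tex10) to 173 FPKM (Tex261), and their middle part was narrow, with quartiles of 7.00 and 16.1 FPKM and a median of 9.10 FPKM. In the THY1-labelled library 41 genes were above 0, from 0.417 FPKM (Tex19.1) to 1284 FPKM (Spata4), with quartiles of 20.6 and 99.5 FPKM and a median of 68.2 FPKM. The ratio of the upper to the lower quartile was 2.30 and 4.84 for these genes, and 9.37 and 16.7 for all genes above 0, so it was larger in the THY1-labelled library for all genes too. Between 5 and 20 FPKM lay 22 of the 45 genes in the KIT-labelled library and 4 in the THY1-labelled library. The share of all genes in this range was not counted. For all genes above 0 the quartiles were 2.49 and 23.3 FPKM in the KIT-labelled library and 1.68 and 28.2 FPKM in the other. Among all 20662 values of its library, 2 of the genes stood at or above percentile 90 in the KIT-labelled library and 22 in the THY1-labelled library, a measure that scaling of the libraries does not change. The genes made up 0.159% of the summed FPKM without Rpph1 in the KIT-labelled library and 1.32% in the THY1-labelled library. Rpph1, the RNA of RNase P, was left out of these sums because it alone held 71.8% and 37.9% of the total. Across the 33 genes above 0 in both libraries, the order of levels was not shared (Spearman's rho -0.26, Pearson's r of log2 levels -0.16), and across all 12578 genes above 0 in both, rho was 0.22. These are descriptions over genes of the same 2 libraries.

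The library labelled KIT holds less information on low genes. The level multiplied by transcript length in kilobases, at percentile 5 of values above 0 among genes with 1 annotated transcript over 1000 bases, was 2.74 in the KIT-labelled library and 0.427 in the THY1-labelled library, a ratio of 6.41. Taking that as the worth of about 1 fragment, and the longest annotated transcript of each gene, 11 of the 34 genes above 0 in the KIT-labelled library stood at under 5 such units, and 3 of 41 in the THY1-labelled library. The same count was not made over all genes. Of the 30 genes higher in the THY1-labelled library, 10 were under 5 units in the other library, 14 were above and 6 were listed at 0. A listed 0 or a value of a few FPKM in the KIT-labelled library may therefore stand for very few fragments, and ratios to it are imprecise. Beside the members, 33.2% of all genes were listed at 0 in the KIT-labelled library and 24.2% in the THY1-labelled library. The members' shares at 0 were lower, at 24.4% (11 of 45) and 8.89% (4 of 45).

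Among genes of the flagellum, the levels were far apart for the midpiece and connecting piece. Spata6, needed for the piece that connects head and tail, was at 14.2 FPKM in the KIT-labelled library and 919.7 FPKM in the THY1-labelled library, a ratio of 64.7. Spata19, a protein of sperm mitochondria, was at 4.09 and 910.3 FPKM, the former being only about 1.49 fragment units. In the THY1-labelled library both stood above percentile 99.8 of all genes.

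The proteins of the central pair followed at lower levels. Spag16, the orthologue of an algal central pair protein, was at 35.2 FPKM in the KIT-labelled library and 181 FPKM in the THY1-labelled library, the highest value of the flagellar genes in the former. Spag6, an armadillo-repeat protein of the central pair, was at 2.27 and 93.5 FPKM. Its symbol has stood for both Spag6 and the closely related Spag6l, and the tables do not say which was meant. The symbol Spag17-ps, a synonym of the central pair gene Spag17 in RefSeq, was at 6.31 and 85.9 FPKM. Spag8, a microtubule-associated protein, was listed at 0 in the KIT-labelled library and at 6.46 FPKM in the other.

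The remaining flagellar genes did not differ by 2-fold. Spata17, which carries calmodulin-binding motifs, was at 23.3 FPKM in the KIT-labelled library and 22.7 FPKM in the THY1-labelled library. Spag1, which helps to assemble dynein arms before they enter the cilium, was at 17.5 and 20.6 FPKM. Of the 8 flagellar genes, 6 were thus at least 2-fold higher in the THY1-labelled library and 2 lay within 2-fold.

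Partner genes of the axoneme mostly differed in the same direction. Their list, like the partner lists below, was chosen with earlier results of these data known. Of 16 central pair, radial spoke and other axonemal partners, 13 were higher by at least 2-fold in the THY1-labelled library, with a median difference of -3.55 against -0.0026 for all genes. Meig1, which acts with Spag16 in sperm assembly, was at 27.7 FPKM in the KIT-labelled library and 2410.0 FPKM in the THY1-labelled library, Ropn1l was at 8.07 and 366 FPKM, and the tektin Tekt1 at 1.76 and 99.9 FPKM. Chosen after its values were seen, the radial spoke gene Rsph4a (8.87 and 0.821 FPKM) was among the 2 that were higher in the KIT-labelled library. Of 7 usable partners of dynein assembly, 6 were higher in the THY1-labelled library, led by Lrrc6 (1.45 and 53.5 FPKM), Pih1d2 (a listed 0 and 12.4 FPKM) and Rpap3 (a listed 0 and 10.3 FPKM), and Ruvbl1 was listed at 0 in both.

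Genes of the sperm head and surface all differed the same way. Spag4, a SUN-domain protein of the nuclear envelope that anchors the tail, was at 8.93 FPKM in the KIT-labelled library and 85.9 FPKM in the THY1-labelled library. Spata16, a Golgi protein needed for the acrosome, was at 7.84 and 50.4 FPKM. Tex101, a lipid-anchored surface protein of germ cells needed for ADAM3 to mature, was listed at 0 in the KIT-labelled library and at 65.0 FPKM in the THY1-labelled library.

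Their partners mostly went with them. Of 5 measured partners that bridge the nuclear envelope, 4 were higher in the THY1-labelled library, with Syne2 at 0.639 and 81.7 FPKM, Sun1 at 3.96 and 59.1 FPKM and Sun3 at 13.2 and 99.7 FPKM. Of 11 genes of ADAM3 maturation, 9 were higher there, with Adam2 listed at 0 and at 242 FPKM, Adam3 itself at 5.71 and 438 FPKM and its chaperone Pdilt at 1.06 and 63.8 FPKM. Chosen after their values were seen, Adam1a (66.7 and 4.00 FPKM) and Adam1b (39.1 and 5.04 FPKM) were the 2 that went the other way. The list of CatSper channel genes was drawn up for a Tex gene outside this set, and all 9 of its genes were higher in the THY1-labelled library.

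Genes of meiosis, bridges and transposon silencing were at 21.6 FPKM or less. Tex14, which keeps the bridges between dividing germ cells open, was at 13.4 FPKM in the KIT-labelled library and 21.6 FPKM in the THY1-labelled library, a ratio of 1.61. Spata22, which acts with Meiob in meiotic recombination, was listed at 0 in the KIT-labelled library and at 19.9 FPKM in the THY1-labelled library. Tex19.1, which restrains retrotransposons in germ cells and early embryos, and its paralogue Tex19.2 were listed at 0 in the KIT-labelled library and at 0.417 and 0.609 FPKM in the THY1-labelled library, below the minimum. How the authors counted reads shared by such paralogues is not stated, and its part in these values was not tested.

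Of 8 bridge partners, 6 were higher by at least 2-fold in the THY1-labelled library, with Rbm44 listed at 0 and at 28.8 FPKM, Ect2 at 0.621 and 30.4 FPKM and Kif23 at 1.20 and 29.5 FPKM. Of 4 usable recombination partners of Spata22, 3 were higher there, with Dmc1 listed at 0 and at 52.6 FPKM and Rpa1 at 0.939 and 75.7 FPKM. Rpa3 was listed at 0 in both.

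Genes with roles in many cell types divided into a larger and a smaller set. Of the 14, 10 were higher by at least 2-fold in the THY1-labelled library and 4 in the KIT-labelled library, and none lay within 2-fold. Spata20, which has a thioredoxin-like domain, was at 7.01 FPKM in the KIT-labelled library and 398 FPKM in the THY1-labelled library. Spata18, a p53-induced factor of mitochondrial quality control, was at 9.46 and 321 FPKM, and Spata7, a protein of the photoreceptor connecting cilium, was at 7.56 and 311 FPKM. These 3 stood between percentiles 99.0 and 99.3 of all genes in the THY1-labelled library and between percentiles 66.3 and 71.0 in the KIT-labelled library.

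The next set lay between 33.1 and 107 FPKM in the THY1-labelled library. The AAA ATPase Spata5, which acts in ribosome maturation, was at 1.75 FPKM in the KIT-labelled library and 107 FPKM in the THY1-labelled library. Spag9, a scaffold for JNK signalling and motor proteins, was at 5.90 and 99.5 FPKM, and Spag7 was at 29.5 and 87.9 FPKM. Spag5, the spindle protein astrin, was listed at 0 in the KIT-labelled library and at 91.3 FPKM in the THY1-labelled library. Of the endoplasmic reticulum proteins, Tex2, which has a lipid-transfer domain, was at 14.4 and 83.6 FPKM and the ER-phagy receptor Tex264 at 2.76 and 33.1 FPKM. Tex10, of a complex in ribosome maturation, was at 1.56 and 48.1 FPKM. Of its 5 partners 4 were higher in the THY1-labelled library, led by Mdn1 (1.37 and 64.5 FPKM) and Pelp1 (a listed 0 and 20.5 FPKM), while the SUMO protease Senp3 was at 219 and 14.2 FPKM.

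Higher in the KIT-labelled library were 4 genes of general function. Tex261, a membrane protein of the early secretory pathway, was at 173 FPKM in the KIT-labelled library and 37.4 FPKM in the THY1-labelled library, a ratio of 4.62. Spata2L was at 146 and 18.2 FPKM. Its paralogue Spata2, which links the deubiquitinase Cyld to death receptor complexes, was at 13.8 and 2.13 FPKM, so both paralogues differed in the same direction. Spata13, a guanine nucleotide exchange factor, was at 7.14 and 0.514 FPKM. The partners of Spata2 did not go with it: of 6, 3 were higher in the THY1-labelled library (Cyld listed at 0 and at 18.5 FPKM, Ripk1 at 0.553 and 24.5 FPKM, Rnf31 at 3.52 and 13.8 FPKM) and 1 in the KIT-labelled library, Sharpin, at 56.2 and 27.6 FPKM and chosen after its values were seen.

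For 14 genes no role is stated here. The gene with the highest level of all 45, Spata4, was among them, at 7.00 FPKM in the KIT-labelled library and 1284 FPKM in the THY1-labelled library, or percentiles 66.3 and 99.9 of all genes. Spata24 was at 7.52 and 436 FPKM and Spata21, which has calcium-binding EF-hand motifs, at 28.1 and 357 FPKM. Spata1 (16.7 and 99.2 FPKM), Tex21 (4.94 and 97.0 FPKM), Spata9 (9.85 and 68.6 FPKM), Tex9 (8.16 and 68.2 FPKM) and Spata3 (8.27 and 43.5 FPKM) formed a middle range. These genes were all at least 2-fold higher in the THY1-labelled library. Tex22 (9.28 and 0.583 FPKM) and Tex24 (18.8 and 7.07 FPKM) were higher in the KIT-labelled library, Tex24 by 1.30 on the log2 scale, which became 0.77 when the libraries were scaled to a median ratio of 1.

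The 4 X-linked genes of the set, Tex13, Tex13a, Tex16 and Tex28, were all listed at 0 in the KIT-labelled library, as were 62.5% of the 818 X-linked genes in the tables. Tex13 is a RefSeq synonym of Tex13b. In the THY1-labelled library Tex13a was at 24.5 FPKM and Tex13 at 2.08 FPKM, and Tex16 and Tex28 were listed at 0, against 35.8% of X-linked genes. Both Tex13 and Tex13a were thus past 2-fold toward the THY1-labelled library, as were 62.7% of the 483 usable X-linked genes. With so few genes, the share is given as a description.

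Both epididymal members, Spag11a and Spag11b, encode beta-defensin-like secreted peptides. Spag11a was listed at 0 in both libraries. Spag11b was at 11.0 FPKM in the KIT-labelled library and listed at 0 in the THY1-labelled library. Of 9 markers of epididymal epithelium, 7 were listed at 0 in both libraries, and Adam7, chosen after its values were seen, was at 0.574 FPKM in the KIT-labelled library and at a listed 0 in the other. The ninth, Cst8, was at 3.07 FPKM in the KIT-labelled library and 468 FPKM in the THY1-labelled library.

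Upstream sequence is shown for 3 genes that were higher in the THY1-labelled library: Spata4, Spag4 and Spag16. Spata4 had the highest level, and Spag16 had a pair of matches to an arm of the X-box, in the order GGCAAC then GTTGCC. The full X-box was not searched for. Among the 36 genes with an upstream window, Spag4 was the only one with a full cyclic AMP response element. The windows are the 250 bases before the transcript start, 5′ to 3′ on the gene's strand, from RefSeq on GRCm38.p6, which is not the mm9 build of the tables: Spata4 at chr8:54600531-54600780 (+), Spag4 at chr2:156064963-156065212 (+) and Spag16 at chr1:69826720-69826969 (+). Capitals mark matches on either strand to TGACGTCA (the palindromic response element bound by the CREB and CREM factors), TGACG (its core, which every full site also holds), GTTGCC (an arm of the X-box, bound by RFX factors) and TATAAA.
Spata4: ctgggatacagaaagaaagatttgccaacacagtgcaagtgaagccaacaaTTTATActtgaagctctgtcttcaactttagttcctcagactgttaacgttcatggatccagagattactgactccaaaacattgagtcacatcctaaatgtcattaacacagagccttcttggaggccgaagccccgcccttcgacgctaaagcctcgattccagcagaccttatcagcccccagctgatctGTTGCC
Spag4: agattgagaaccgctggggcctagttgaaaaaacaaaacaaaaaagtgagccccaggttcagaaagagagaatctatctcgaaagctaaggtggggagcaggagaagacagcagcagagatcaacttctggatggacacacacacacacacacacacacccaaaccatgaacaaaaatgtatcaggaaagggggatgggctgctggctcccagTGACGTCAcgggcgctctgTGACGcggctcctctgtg
Spag16: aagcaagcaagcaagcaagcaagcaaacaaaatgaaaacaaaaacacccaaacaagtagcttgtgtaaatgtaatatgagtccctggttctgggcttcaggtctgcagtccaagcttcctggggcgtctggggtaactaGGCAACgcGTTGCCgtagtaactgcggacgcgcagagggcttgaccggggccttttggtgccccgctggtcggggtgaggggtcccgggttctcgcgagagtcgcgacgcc
Of the 45 genes, 36 had at least 1 such window, leaving out Spag6 for its ambiguous symbol. These 36 genes had 42 windows, and a gene was counted if any of its windows held a match. The shares of all windows count each window singly, so the 2 kinds of share are not of like units. TGACGTCA was found in 1 of the 36 (Spag4, starting 37 bases before the start) and in 1.55% of all 32851 windows. TGACG was found in 10 of the 36 (27.8%) and in 17.8% of all windows, GTTGCC in 3 (8.33%) and in 10.4%, and TATAAA in 5 (13.9%) and in 12.4%. These matches are letters in a window and were not tested for binding.

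**Figure D2:**
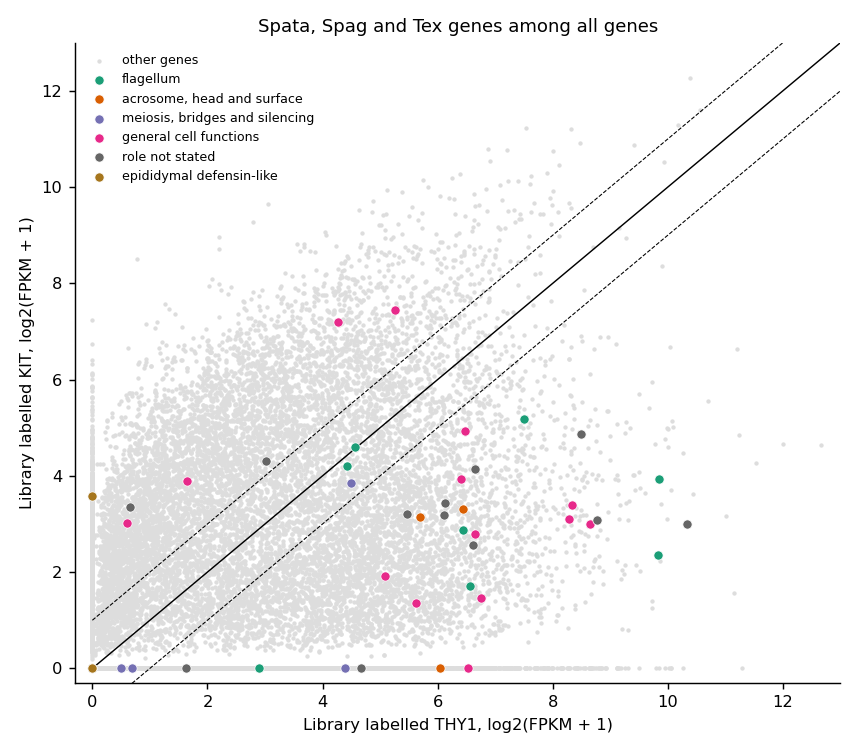
Each point is a gene, with log2(FPKM + 1) in the THY1-labelled library on the x axis and in the KIT-labelled library on the y axis. The solid line marks equal values and the dashed lines 2-fold, Rpph1 lies off both axes, and most Spata, Spag and Tex genes (coloured by role) lie below the lower dashed line while Tex261 and Spata2L have the highest levels on the y axis.

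The direction of a gene moved with its number of exons. The count used is that of the annotated transcript with the most exons (GENCODE M21), available for 15336 of the 15573 usable genes. Among all usable genes, 87.8% of those with 1 exon were higher by at least 2-fold in the KIT-labelled library and 3.41% in the THY1-labelled library. These shares shifted step by step to 23.4% and 55.9% among genes with 11 or more exons. Of the 7 Spata, Spag and Tex genes higher in the KIT-labelled library, 5 had 3 or 4 exons (Spag11b, Spata2, Spata2L, Tex22 and Tex24), and the others were Tex261 with 6 and Spata13 with 13. The 30 genes higher in the THY1-labelled library had a median of 11.5 exons, from 2 (Tex13a) to 49 (Spag17-ps).

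The shares can also be read within ranges of exon number. Of the 31 usable members with 6 or more exons, 26 (83.9%) were at least 2-fold higher there, against 50.6% of all genes with 6 or more exons, and 2 (6.45%) were higher in the KIT-labelled library, against 28.2%. Of the 9 with 1 to 5 exons, 4 (44.4%) were higher in the THY1-labelled library, against 21% of all such genes, and 5 (55.6%) in the KIT-labelled library, against 63.6%. Within the narrower range of 3 to 5 exons, which holds 8 of these 9, 5 (62.5%) were higher in the KIT-labelled library, against 55.5% of all such genes, and the median difference was 1.77, against 1.29. The part of exon number in the difference of any single gene was not tested.

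**Figure D3:**
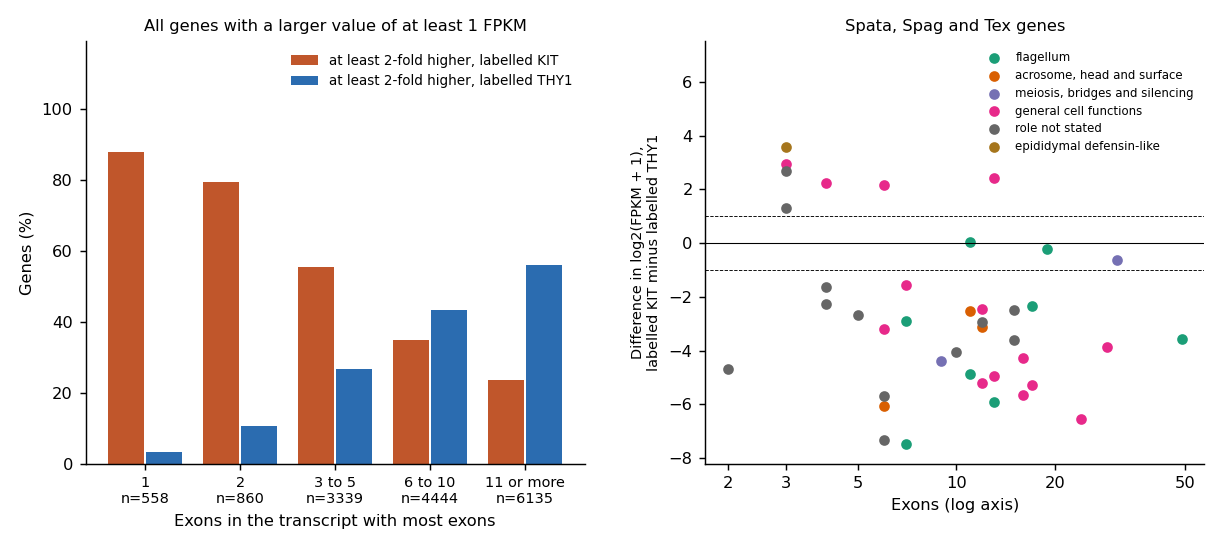
Left, the share of all usable genes (%) at least 2-fold higher in the KIT-labelled (orange) or THY1-labelled library (blue), by number of exons, with the number of genes under each pair of bars. Right, the difference in log2(FPKM + 1), labelled KIT minus labelled THY1, of each usable Spata, Spag and Tex gene against its exon number on a log axis, with dashed lines at 2-fold: the genes above the upper line sit mainly at 3 and 4 exons.

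Markers of later germ cells and Leydig cells differed between the libraries. Of 17 spermatocyte markers, 14 were higher by at least 2-fold in the THY1-labelled library and 1 in the other. Their summed level was 240.3 FPKM in the KIT-labelled library and 8952 FPKM in the THY1-labelled library, where Crisp2 (4082 FPKM) and Meig1 (2410 FPKM) held much of it. Dmc1, Hormad1, Ccna1 and Adam2, the first 3 named after their values were seen, were listed at 0 in the KIT-labelled library. Meig1, Adam2 and Dmc1 were also in partner lists above, so these lists are not independent. Spermatid markers were divided, with 13 of 23 higher in the THY1-labelled library, 10 in the KIT-labelled library and sums of 5717 and 6308 FPKM. Prm1, chosen after its values were seen, was at 2406 and 184 FPKM, while Ropn1 was listed at 0 and at 552 FPKM and Gsg1 was at 11.3 and 1388 FPKM. Leydig cell markers were higher in the THY1-labelled library for 7 of 8, with sums of 189 and 12931 FPKM. By number of markers, the other somatic lists were divided or went the other way. For Sertoli and for peritubular and stromal cells, 4 markers were higher in each library, for macrophages 3 and for endothelium 2. Of T lymphocyte markers, 4 were higher in the KIT-labelled library and 1 in the other. Labelled KIT first, the sums were 31.2 and 1288 FPKM for Sertoli and 234 and 882 FPKM for peritubular and stromal markers. The sums for macrophages were 255 and 964 FPKM, for endothelium 62.1 and 10.3 FPKM, and for T lymphocytes 51.8 and 14.7 FPKM. Single genes carried much of the larger sums, so these do not give the direction of most markers. In the THY1-labelled library Clu was at 848 FPKM and Vim at 375 FPKM (Sertoli), Sparc at 680 FPKM (peritubular and stromal) and Aif1 at 880 FPKM (macrophage). The macrophage marker C1qc went the other way, at 48.3 FPKM and a listed 0. The part of such cells in the levels of the Spata, Spag and Tex genes was not tested.

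Other genes named for testis or sperm were divided much as all genes were. Of 23 usable genes of such a list (Spaca, Spats, Tsga and others), 10 were higher by at least 2-fold in the THY1-labelled library, 8 in the KIT-labelled library and 5 lay within 2-fold, beside 41.1% and 39.5% of all genes in these directions. Their median difference was 0.43, beside -3.02 for the Spata, Spag and Tex genes, and this contrast was not tested. The largest differences in the list were those of Spaca1 (a listed 0 and 72.4 FPKM), Spaca3 (a listed 0 and 59.3 FPKM) and Tsga10 (1.49 and 98.6 FPKM, labelled KIT first). Spaca1 was also among the spermatid markers.

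**Figure D4:**
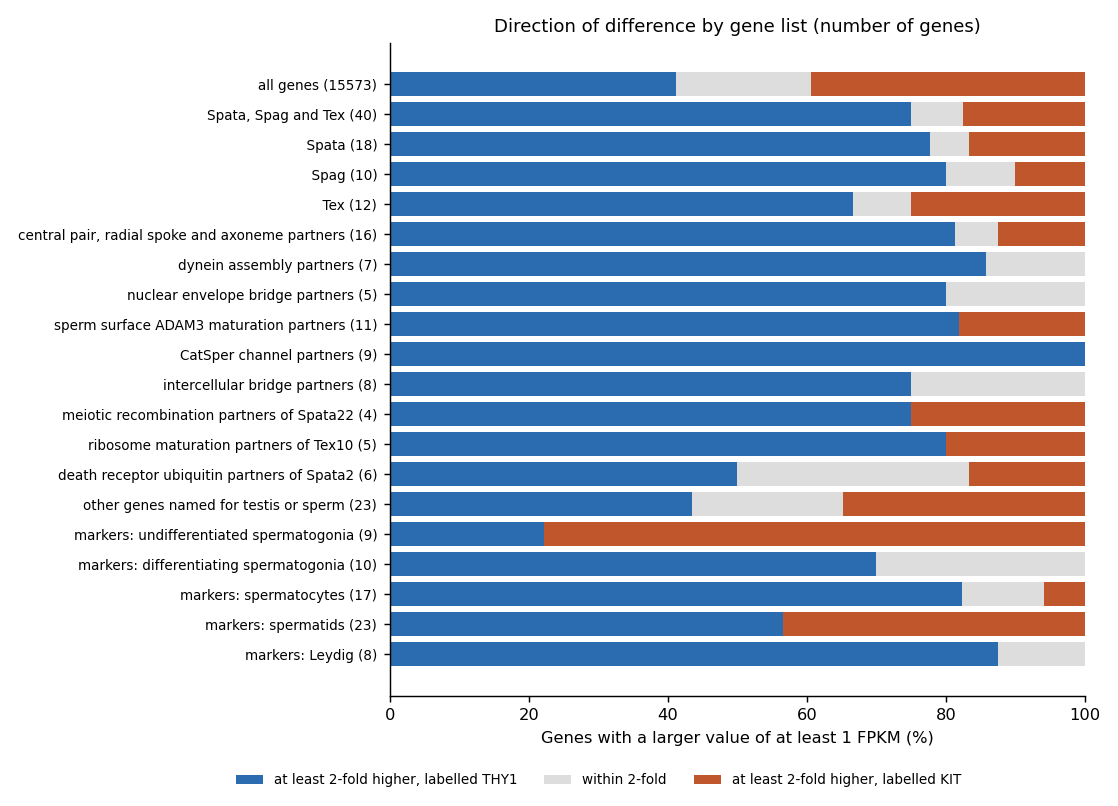
Share of usable genes (%, x axis) at least 2-fold higher in the THY1-labelled library (blue), within 2-fold (grey) or at least 2-fold higher in the KIT-labelled library (orange), for each list on the y axis with its number of genes in brackets. Blue covers 75% of the bar of the Spata, Spag and Tex genes and 41.1% of the bar of all genes, while the markers of undifferentiated spermatogonia are mostly orange.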

How the data were processed

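RNA levels of 2 libraries were analysed. Per the labels' protocols, total RNA was depleted of ribosomal RNA and made into directional libraries. Per the submitters' processing notes, CASAVA, TopHat 1.4.1, Cufflinks 2.1.1 and the build mm9 were used, with no roles given. The authors deposited 1 decimal value per gene symbol and the headers name no unit, so the values were taken as FPKM because Cufflinks gives it. The annotation, any filter and the handling of multiply aligned reads are not stated in these sources. FPKM is divided by a total of fragments, so very abundant RNAs can lower all other values. Total depth is unknown.

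Tables follow the series record for their sample, and groups follow the titles. Differences are log2(FPKM + 1), pseudocount 1, labelled KIT minus labelled THY1, which understates changes of low genes, and usable genes are those reaching 1 FPKM in either library. Counts are by a fixed 2-fold, and no test was made. The member, partner and marker lists were chosen with earlier results of these data known. Any member may be named. From other lists up to 3 genes with the largest difference and genes at 0 in both are named, exceptions are marked, and a few genes the rule names are not reported here. All 45 symbols matched RefSeq (42 by exact symbol, the others by case or synonym). Exon numbers and lengths come from GENCODE M21 (GRCm38). The counting was tested on simulated data. Alternatives were a pseudocount of 0.1, 3 scalings, no minimum, a minimum of 5 or 30 FPKM, and genes above 0 in both libraries. Python 3.11.15, numpy 2.4.6, pandas 2.3.3, scipy 1.17.1 and matplotlib 3.10.9 were used.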

Additional observations from a re-analysis of the deposited data

How the results depend on the processing

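The number of Spata, Spag and Tex genes at least 2-fold higher in the THY1-labelled library stayed between 24 and 31 over the 8 alternatives. The number higher in the KIT-labelled library was 6 or 7 under 7 of them and 2 with a minimum of 30 FPKM, where fewer genes counted (28). With that minimum the median difference was -3.74 for the members and -0.99 for all genes. The members' median relative to that of all genes was then -2.75, against -3.02 in the main setting. Scaling to a median ratio of 1, to equal upper quartiles or to equal sums leaving out Rpph1 moved the median of all genes to -0.57, 0.26 and 0.22, and the members' median relative to it was -2.92, -3.15 and -3.13. Over the 4 alternatives that change a single gene's difference, all 30 genes higher in the THY1-labelled library and 6 of the 7 in the KIT-labelled library stayed past 2-fold, the exception being Tex24, and no gene past 2-fold changed direction. With 1 library per group there is no estimate of replicate error, and low values in the KIT-labelled library may rest on few fragments. No paired analysis was possible because each spermatogonial group has 1 library.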
